A study of Oryza sativa Japonica Group with 12 samples.

Results

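A pair of adjacent genes on chromosome 11 and another pair on chromosome 1 gave much lower signals in panicles of the rice fst mutant than in wild-type (WT) panicles, 15.8-fold to 18.9-fold lower before flowering and 3.07-fold to 14.5-fold lower at 5 days after pollination. The chromosome 11 pair is LOC4350580, which the study names for its similarity to HST (HASTY), and its neighbour LOC4350579. The chromosome 1 pair is LOC4325213 and LOC4325215, a gene with a Brix domain. These 4 genes, of 17905 with a probe set of their own, were chosen because they are adjacent and because their signals were low in fst on these arrays, so their levels by genotype are given as a description, without a test. Each gene has 1 probe set listed for it, and no probe set listed for several genes names any of them.

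In Arabidopsis, HASTY is the relative of the animal exportin 5, a carrier at the nuclear pore, and it is needed for the normal accumulation of many microRNAs. Plants that lack it have altered leaf polarity, phase change and flower development. Brix domain proteins, known best from yeast, are nucleolar factors that assemble the ribosomal subunits. The annotation used here holds gene names without descriptions for any gene, so the functions of LOC4350579 and LOC4325213 are not given here.

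Total RNA of panicles was hybridized to the Affymetrix Rice GeneChip, with 3 arrays in each of 4 groups. WBF and W5D are WT japonica panicles before flowering (BF) and at 5 days after pollination (DAP), and MBF and M5D are panicles of the fst mutant (cyn in the labels) at the same stages. Every sample pooled 20 panicles, taken from 10 plants grown in a greenhouse. The mutant arose spontaneously in the breeding line Junambyeo and carries a small deletion in the B_sister MADS-box gene FST that shifts its reading frame. All fst samples are labelled as the same mutant, and the labels do not say how closely the WT plants are related to it. The study also backcrossed the fst allele into Junambyeo, other varieties and a wild rice, and the sample titles name no background. The deletion in FST and any other difference between the lines therefore cannot be told apart. The description field of the fst arrays calls them wild lines, against their title, source and genotype, which were followed.

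Within a group the arrays correlated with r of 0.990 to 0.996. On each array the lower quartile of all signals was 10.1 to 11.3, with medians of 30.8 to 33.6. No detection calls were used here, so folds against signals near that level rest on how background was corrected. Of 12 floral organ MADS-box genes, 12 gave mean signals of 408 or more in every group. The signal of FST itself was 115 ± 8.64 on the WBF arrays and 227 ± 13.9 on the MBF arrays (SD, n = 3), and its transcript remains in the mutant, so it does not check the genotype labels.

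HST signals were lower in fst at both stages and lower at 5 DAP in both genotypes. Its probe set gave 608, 375 and 336 on the 3 WBF arrays and 23.2, 29.9 and 27.8 on the MBF arrays. At 5 DAP it gave 83.4, 96.5 and 157 in W5D and 6.49, 8.18 and 7.80 in M5D. Every fst array lay below every WT array of its stage, and the lowest WT signal was 11.3 times the highest fst signal before flowering and 10.2 times at 5 DAP. In M5D the HST probe set stood between the 9.17th and 16.2nd percentile of all probe sets, against the 80.4th to 86.9th in WBF. The mean ± SD over 3 arrays was 440 ± 147 in WBF, 27.0 ± 3.43 in MBF, 112 ± 39.0 in W5D and 7.49 ± 0.888 in M5D.

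LOC4350579, the gene next to HST in the annotation, had the same order of groups. It gave 283, 197 and 173 in WBF and 12.4, 16.3 and 11.3 in MBF. At 5 DAP it gave 35.8, 59.5 and 71.7 in W5D and 8.20, 9.44 and 12.6 in M5D. The genotypes did not overlap at either stage, but the gap was narrower at 5 DAP, where the lowest WT signal was 2.84 times the highest fst signal, against 10.7 times before flowering. Both fst groups lay between the 16.9th and 36.1st percentile of the probe sets.

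LOC4325213, the gene before the Brix domain gene on chromosome 1, gave 378, 299.5 and 211 in WBF and 26.7, 18.1 and 12.6 in MBF. At 5 DAP it gave 42.3, 47.1 and 57.6 in W5D and 17.0, 17.4 and 13.5 in M5D. The WT arrays lay above the fst arrays at both stages, with the narrowest gap of the 4 genes at 5 DAP, a ratio of 2.43 between the lowest WT and the highest fst signal. Its MBF signals were the most variable of the fst groups, with an SD of 37.1% of the mean.

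The Brix domain gene LOC4325215 gave 265, 237 and 145 in WBF and 12.1, 11.3 and 9.82 in MBF. At 5 DAP it gave 90.6, 93.2 and 89.3 in W5D and 12.2, 9.39 and 9.81 in M5D. The WT and fst arrays did not overlap, and the lowest WT signal was 11.95 times the highest fst signal before flowering and 7.30 times at 5 DAP. The W5D arrays differed little, with an SD of 2.22% of the mean, while WBF had an SD of 29.1%.

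For each of the 4 genes WBF replicate 1 was the highest and WBF replicate 3 the lowest array of that group. Within WBF the genes therefore ranked the arrays alike, which holds within and across the pairs. In W5D replicate 3 was the highest and replicate 1 the lowest for both genes of the chromosome 11 pair and for LOC4325213, and the Brix domain gene was nearly level. The groups themselves ran in the order WBF, W5D, MBF and M5D for every gene, and the neighbours in this order did not overlap, except MBF and M5D, whose arrays overlapped for the 3 genes other than HST.

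**Figure D1:**
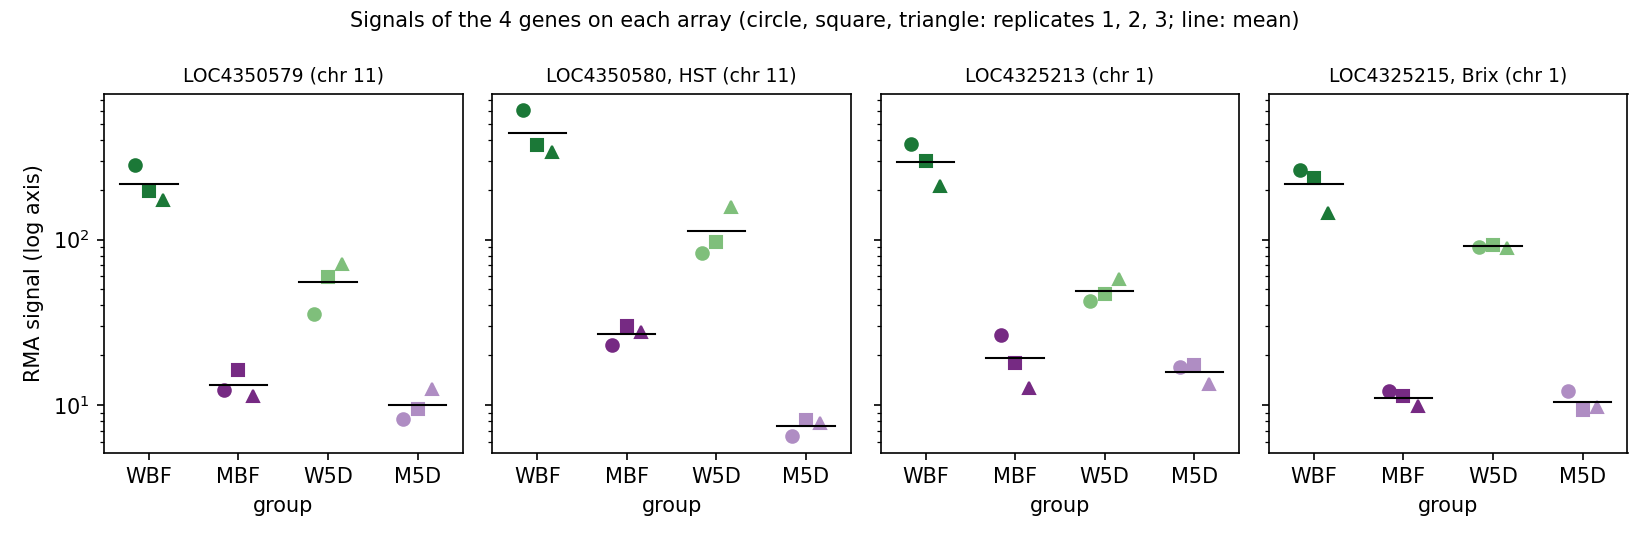
RMA signal (log axis) of the 4 genes on each array, by group, with circles, squares and triangles for replicates 1, 2 and 3 and a line at the arithmetic mean of the group. In every panel the WT groups (green) lie above the fst groups (purple), and HST reaches 7.49 ± 0.888 in M5D.

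The size of the fst effect was nearly the same in the 4 genes before flowering and differed widely at 5 DAP. As log2 differences of the group means, fst minus WT, the values before flowering were -4.02 (SE 0.26) for LOC4350579 and -3.99 (SE 0.24) for HST. They were -3.98 (SE 0.26) for LOC4325213 and -4.24 (SE 0.19) for the Brix domain gene. These are falls between 15.8-fold and 18.9-fold, and their 95% intervals overlap. At 5 DAP the effect was -3.86 (SE 0.24) for HST and -2.43 (SE 0.26) for LOC4350579. On chromosome 1 it was -3.13 (SE 0.19) for the Brix domain gene and -1.62 (SE 0.26) for LOC4325213. As folds, HST was 14.5-fold and LOC4350579 5.39-fold lower at 5 DAP, and the Brix domain gene was 8.74-fold and LOC4325213 3.07-fold lower.

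The difference of the effect between the stages, 5D minus BF, was 0.13 for HST (95% interval -0.61 to 0.87) and 1.11 for the Brix domain gene (0.53 to 1.69). It was 1.59 for LOC4350579 (0.80 to 2.38) and 2.36 for LOC4325213 (1.58 to 3.14). Since the rule used the effects at both stages, this difference is also a description. The fst signals of the 3 genes other than HST lay between 8.20 and 26.7 over both stages.

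By the fit across all 57258 probe sets, 4 of the 4 genes were at least 4-fold lower in fst before flowering and 3 of 4 at 5 DAP. Of all probe sets, 0.124% were lower by 4-fold or more before flowering and 0.615% at 5 DAP, with an adjusted p under 0.05 (limma, Benjamini-Hochberg), and 0.0262% at both stages. The genes ranked 8 to 11 from the lowest log2 difference of all probe sets before flowering, and HST ranked 115, the Brix domain gene 168, LOC4350579 276 and LOC4325213 533 at 5 DAP. A complete gap between genotypes with fst lower, as all 4 genes showed, was found in 13.5% of the probe sets before flowering and in 12.1% at 5 DAP. These counts follow from the choice of the genes and place them among the other probe sets.

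**Figure D2:**
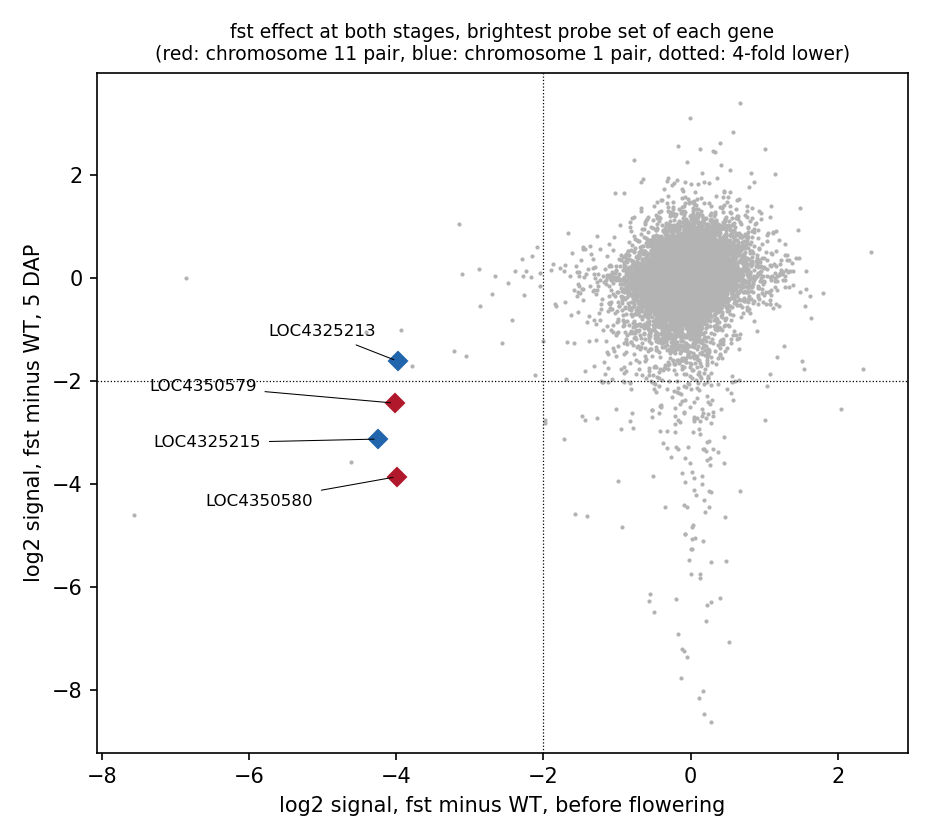
Log2 difference of the signal, fst minus WT, before flowering (x) and at 5 DAP (y) for the brightest probe set of each gene, with the chromosome 11 pair in red, the chromosome 1 pair in blue and dotted lines at 4-fold lower. The 4 genes lie close together on the x axis, from -4.24 to -3.98, and spread from -3.86 to -1.62 on the y axis.

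In WT panicles the signals of all 4 genes were lower at 5 DAP than before flowering, without overlap. The arrays are those on which the genes were chosen, so the change between stages is given as a description as well, without a test. HST was 3.93-fold lower (log2 SE 0.24) and LOC4350579 3.99-fold lower (log2 SE 0.26), so the estimates for the pair lay close together. LOC4325213 was 5.92-fold lower (log2 SE 0.26) and the Brix domain gene 2.29-fold lower (log2 SE 0.19). Of all probe sets, 14.9% were lower at 5 DAP with an adjusted p under 0.05 in WT and 11.2% in fst (limma), from which nothing is read about the 4 genes.

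In fst panicles the log2 change between the stages was -1.85 for HST (95% interval -2.37 to -1.32). It was -0.41 for LOC4350579 (-0.97 to 0.15), -0.21 for LOC4325213 (-0.76 to 0.35) and -0.08 for the Brix domain gene (-0.49 to 0.33). The MBF means of these 3 genes, 13.3, 19.1 and 11.1, compare with lower quartiles of 10.1 to 11.3 on the arrays. HST gave 23.2 to 29.9 in MBF and 6.49 to 8.18 in M5D, with no overlap, while the other 3 genes overlapped between these groups.

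Markers of other tissues also differed between the groups. The summed signal of 9 anther and pollen genes lay between 9209 and 19406 in WBF, 3376 and 10143 in MBF, 847 and 970 in W5D, and 771 and 963 in M5D. Before flowering most of the mean sum came from RTS (LOC4326940), with means of 12255 in WBF and 3662 in MBF. Before flowering the test called 4 of these 9 genes lower in fst and none higher, beside 2.8% lower and 1.81% higher of all probe sets, and at 5 DAP none passed in either direction (limma). Genes listed by name as seed storage genes, of the endosperm, differed at 5 DAP. The summed signal of these 8 genes lay between 9499 and 24466 in W5D and between 1823 and 2025 in M5D. Most of the M5D sum came from GLB1 (LOC4337720), which was listed by its name alone. Whether this gene encodes a storage protein was not checked, so the sums may include a gene that is not of the endosperm. GLB1 gave 1634 in WBF, 1656 in MBF, 2141 in W5D and 1756 in M5D. Its level thus did not follow that of the list, whose median gene mean was 2057 in W5D and 16.6 in M5D. Of the 8, 6 were lower and none was higher at 5 DAP. The 12 floral organ genes went the other way at 5 DAP, with 6 higher in fst and none lower, a median log2 change of 0.41, and sums of 39751 to 41182 in W5D and 51670 to 53523 in M5D. In these whole panicles, fewer cells of a type and less RNA per cell cannot be told apart, and the part of these tissues in the levels of the 4 genes was not tested.

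**Figure D3:**
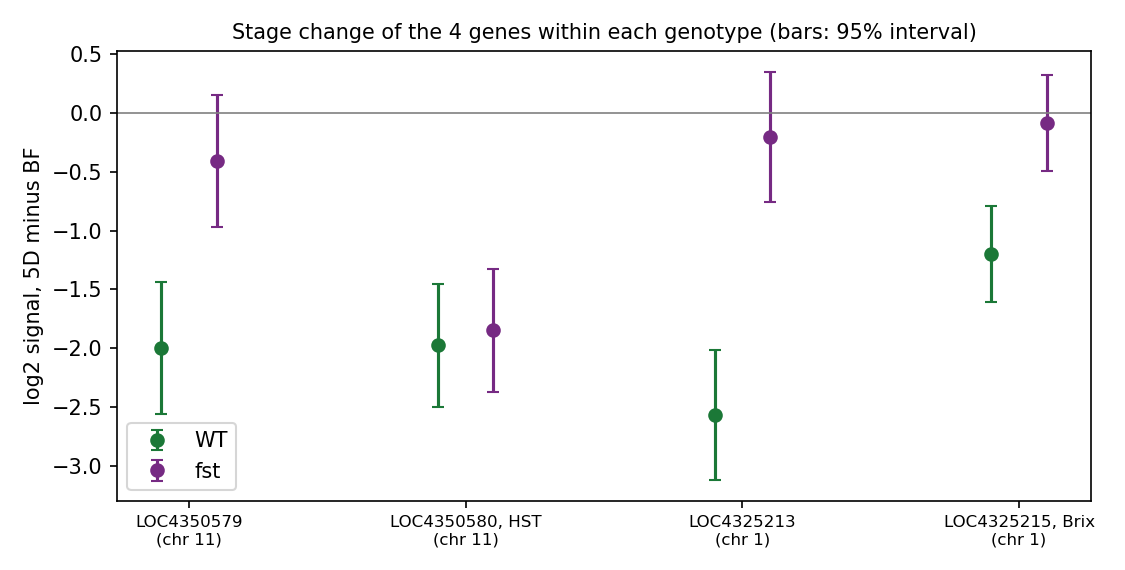
Log2 difference of the signal, 5D minus BF, for each of the 4 genes within WT (green) and within fst (purple), with points at the estimate and bars for the 95% interval of limma. The estimates of HST are -1.97 in WT and -1.85 in fst, and those of the other genes in fst lie between -0.41 and -0.08. The intervals are a description and not a test, since the genes were chosen on these arrays.

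Genes around the pairs were examined to see whether the low signals reached further along the chromosomes, using the gene order of the RefSeq annotation (ASM3414082v1). These flanking genes were not chosen by their values, so the fst effect was tested on them. Of the 40 annotated genes within 10 genes on either side of the pairs, 12 had a probe set listed for them, 3 around the chromosome 11 pair and 9 around the chromosome 1 pair. Before flowering the test called 2 of the 12 lower in fst and none higher, beside 2.8% and 1.81% of all probe sets. At 5 DAP 1 was lower and 2 were higher, beside 5.41% and 6.22% of all probe sets (limma, adjusted over all probe sets).

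On chromosome 1 the gene after the pair was lower in fst at both stages, by far less than the pair, and the brightest probe set of the gene before it passed the test at neither. LOC4325216, the next gene after the Brix domain gene, gave 179 ± 34.6 in WBF and 85.7 ± 8.47 in MBF, with -1.05 (SE 0.14, adjusted p = 0.00170) as the log2 change. At 5 DAP its W5D mean was 355 ± 43.2 and its M5D mean 188 ± 16.3 (SD, n = 3 arrays), and the log2 change was -0.91 (SE 0.14, adjusted p = 0.00112 from limma). Its WT and fst arrays did not overlap at either stage. LOC4325217, the gene after it, had -0.05 before flowering (SE 0.14, adjusted p = 0.887) and -0.27 at 5 DAP (SE 0.14, adjusted p = 0.314) on the log2 scale.

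LOC4325212, the gene just before LOC4325213, gave 1692 ± 201 in WBF, 1467 ± 136 in MBF, 1205 ± 78.3 in W5D and 1518 ± 535 in M5D (mean ± SD, n = 3) with its brightest probe set. The log2 changes were -0.20 (SE 0.19, adjusted p = 0.571 from limma) before flowering and 0.28 (SE 0.19, adjusted p = 0.453) at 5 DAP. A dimmer probe set of this gene had log2 changes of -0.68 (adjusted p = 0.0308) and 0.61 (adjusted p = 0.0256), so the probe sets of LOC4325212 disagree. LOC4325211 (TPI), the triosephosphate isomerase of glycolysis, also had probe sets that disagree. Its brightest gave a WBF mean of 11576 ± 165 and an MBF mean of 10370 ± 813 (SD, n = 3), for which the log2 change was -0.16 (SE 0.09, adjusted p = 0.339). A dimmer probe set of TPI gave 2034 ± 581 and 510.4 ± 91.1, for which it was -1.97 (SE 0.20, adjusted p = 0.000203). At 5 DAP the dimmer one had -0.71 (SE 0.20, adjusted p = 0.0350) and the brightest 0.05 (adjusted p = 0.839).

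On chromosome 11 the nearest genes with a probe set were further away. LOC4350581, next after HST, and the 2 genes next before LOC4350579, both annotated as long non-coding RNA, had none listed for them and could not be read here. The 34727 probe sets without a listed gene were not searched for them. LOC4350578, the third gene before the pair, had a WBF mean of 27.2 ± 5.49 and an MBF mean of 12.7 ± 1.76 (SD, n = 3 arrays), and at these low signals the log2 change was -1.08 (SE 0.18, adjusted p = 0.00469 from limma). At 5 DAP it was -0.46 (SE 0.18, adjusted p = 0.126). The suffix of its probe set (_x_at) marks probes that may also bind other transcripts.

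The other measured genes within 10 genes of the chromosome 11 pair moved the opposite way at 5 DAP. LOC4350576, 8 genes before the pair, gave 6405 ± 681 in WBF and 8812 ± 1648 in MBF, and 13.7 ± 2.85 in W5D and 50.1 ± 32.5 in M5D (mean ± SD, n = 3). It was higher in fst at 5 DAP by 1.68 on the log2 scale (SE 0.35, adjusted p = 0.00694 from limma). Its W5D mean compares with lower quartiles of 10.1 to 11.3 on the arrays. With 1 array of that stage left out the log2 change was 1.18 to 2.14. LOC4350587, 10 genes after the pair, rose from 106 ± 9.21 in W5D to 233 ± 85.4 in M5D, by 1.06 on the log2 scale (SE 0.24, adjusted p = 0.0105). Before flowering neither passed the test, with adjusted p of 0.488 and 0.427.

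**Figure D4:**
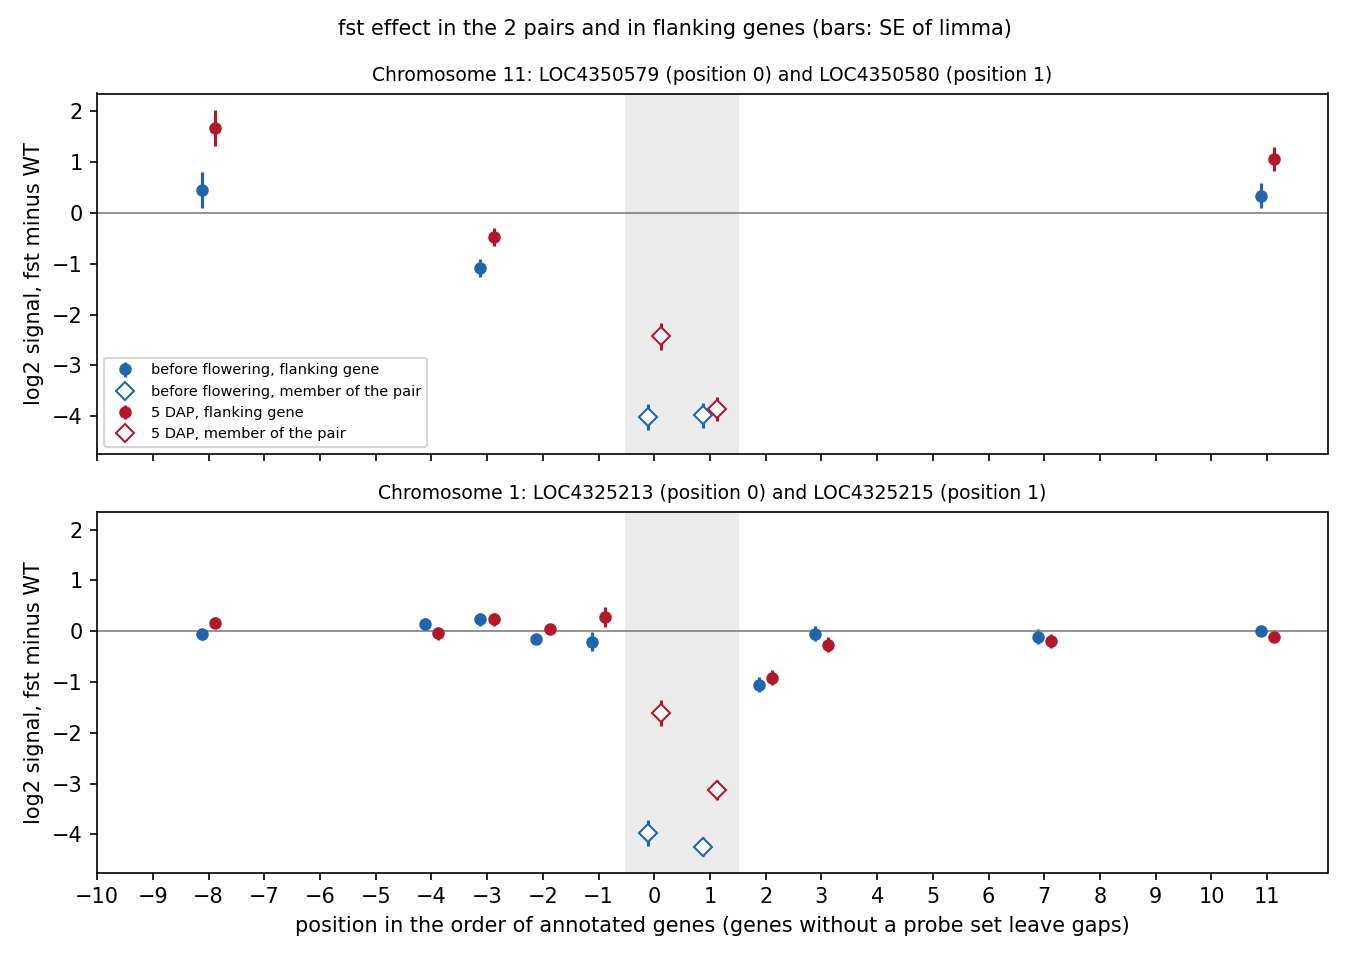
Log2 difference of the signal, fst minus WT, for the pairs (open diamonds, shaded) and for flanking genes with a probe set (filled circles), by position in the order of annotated genes, before flowering (blue) and at 5 DAP (red), with bars for the SE of limma. The pairs lie between -4.24 and -1.62, and the lowest flanking value drawn, taking the brightest probe set of each gene within 10 genes on either side, is LOC4350578 at -1.08.

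Among 9988 pairs of genes that are next to each other in the annotation and both have a probe set, the pairs in which both genes were at least 4-fold lower in fst past the test before flowering were these 2 (0.02%). At 5 DAP there were 5 such pairs (0.0501%), of which the HST pair was 1, and the HST pair alone was called at both stages. The 2 pairs were chosen as adjacent and low in fst on these arrays, so their place in these counts follows from the choice. The chromosome 1 pair missed the count at 5 DAP because LOC4325213 was 3.07-fold lower. The 4 other pairs at 5 DAP lie on chromosomes 3, 4 and 7 and had log2 changes between -0.52 and 0.47 before flowering, unlike the HST pair. They include RAG2 (LOC4342723), a seed storage protein, with a log2 change of -6.21 at 5 DAP.

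Single genes with so large a fall before flowering were few, and chromosome 11 held more of them than any other chromosome. By the brightest probe set, 28 of 17903 placed genes were at least 4-fold lower past the test (0.156%), 8 of 846 on chromosome 11 (0.946%) and 20 of 17057 elsewhere (0.117%). The 8 include the HST pair, which was chosen for its low signals in fst. The nearest other gene of this kind was LOC4350780, with 317 annotated genes between it and HST, and it gave 106 in WBF and 12.5 in MBF, with log2 changes of -3.06 before flowering and -1.52 at 5 DAP. On chromosome 1, with 5 of 2649 genes, the nearest was ATS3 (LOC4327118), named by the study, with 186 genes between it and the Brix domain gene. By the same measure 5 genes were called at both stages (0.0279% of those placed). HST, LOC4350579 and the Brix domain gene are 3 of them, which follows from their choice. The others are ATS3 and LOC9267585, which the study places in the CC-NBS class of resistance genes.

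ATS3 was also among the 3 most alike in pattern to each gene but HST, and LOC9267585 among those of LOC4350579 and the Brix domain gene. Likeness was taken as Pearson's r of the log2 signal over the 12 arrays, which fall into 4 groups, so that r mostly reflects the order of the groups. For the Brix domain gene the most alike were LOC9267585 (r = 0.991), ATS3 (r = 0.989) and LOC4343980 (r = 0.982). For LOC4350579 they were ATS3 (r = 0.973), LOC9267585 (r = 0.969) and LOC4350780 (r = 0.969). For LOC4325213 they were LOC4325617 (r = 0.964), LOC4352856 (r = 0.959) and ATS3 (r = 0.955).

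HST had other nearest patterns, of genes with much smaller changes. The most alike were LOC4343900 (r = 0.986), the CASP-like membrane protein gene OsCASPL5A1 (LOC4331998, r = 0.974) and DRB4 (LOC4345448, r = 0.970). Their log2 changes in fst before flowering were -0.77, -0.70 and -0.72, against -3.99 for HST.

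DRB4, a double-stranded RNA-binding protein of the small RNA pathway, was lower in fst at both stages, as HST was. It gave 1890 in WBF, 1145 in MBF, 1499 in W5D and 796 in M5D (means of 3 arrays), and was lower by -0.72 (SE 0.09, adjusted p = 0.00117 from limma) before flowering and -0.92 (SE 0.09, adjusted p = 4.62e-05) at 5 DAP, in log2. Of 25 other genes of that pathway with a probe set (Argonaute, Dicer, RNA-dependent RNA polymerase and double-stranded RNA-binding genes, DRB4 included), 3 were lower and 1 was higher before flowering. At 5 DAP 3 were lower and 5 higher. The shares of all probe sets were 2.8% lower and 1.81% higher before flowering, and 5.41% and 6.22% at 5 DAP. The median log2 change was -0.15 before flowering and 0.18 at 5 DAP, beside 0.04 and 0.01 over all probe sets.

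Argonaute genes, whose proteins bind small RNAs, made up most of the rises at 5 DAP, and they were also the largest family of the list. The Argonaute gene AGO14 was lower at that stage. In log2, AGO1B (LOC9270411) rose by 0.61 (SE 0.14, adjusted p = 0.0103 from limma), AGO1 (LOC4331253) by 0.54 (SE 0.11, adjusted p = 0.00653) and AGO1A (LOC4330281) by 0.52 (SE 0.13, adjusted p = 0.0173). AGO1A lost the call without W5D replicates 1 or 2 or M5D replicate 3 (adjusted p up to 0.0656 over its alternatives). PNH1 (LOC9269490), another Argonaute, and DRB2 (LOC4347527), with 0.37 and 0.41, lost the call under 8 and 6 of 12 alternatives (adjusted p up to 0.152 and 0.143). PNH1 lost it without any 1 of the W5D arrays or without M5D replicates 1 or 3. Other eBayes settings, the replicate block and a fit of only the groups compared also removed the call of PNH1. DRB2 lost it without W5D replicates 1 or 3 or M5D replicates 2 or 3. Another normalization and a fit of only the groups compared also removed the call of DRB2.

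AGO14 (LOC4342603) turned from higher to lower, at 0.61 in log2 (SE 0.16, adjusted p = 0.0479 from limma) before flowering and -1.10 (SE 0.16, adjusted p = 0.000606) at 5 DAP. The rise before flowering was lost without any 1 of the 6 arrays of that stage, with median centring and with the replicate block (adjusted p up to 0.148 over its alternatives). MEL1 (LOC4334449), the Argonaute of germ cells in anthers and ovules, was lower before flowering, at 413 in WBF and 217 in MBF, or -0.90 in log2 (SE 0.16, adjusted p = 0.00674). DRB3 (LOC4338371) had -0.50 before flowering (SE 0.11, adjusted p = 0.0234) and -0.93 at 5 DAP (SE 0.11, adjusted p = 0.000129) in log2. Its call before flowering was lost in a fit of only the groups compared. The same call was lost without WBF replicates 1 or 2 or MBF replicates 1 or 2 (adjusted p up to 0.0955 over its alternatives).

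Of the GTPase Ran, which powers transport through the nuclear pore and releases exportins from their cargo, 2 genes had a probe set. RAN1 (LOC4325312) gave 2319 in W5D and 1356 in M5D, or -0.78 in log2 (SE 0.09, adjusted p = 0.000128 from limma), and had -0.33 (SE 0.09, adjusted p = 0.0568) before flowering. The other Ran gene, LOC4339683, had -0.13 (adjusted p = 0.386 from limma) before flowering and -0.11 (adjusted p = 0.520) at 5 DAP. A search by a few symbols and synonyms found no gene of ribosome assembly, and the annotation holds no descriptions to search. The Brix domain gene therefore has no such comparison here.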

How the data were processed

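The deposited values are intensities on a linear scale, which the authors computed with RMA in Affymetrix Expression Console (versions not given in the sources used here): background correction, quantile normalization and summary per probe set. For the tests, log2 of each value entered a limma 3.58.1 fit (R 4.3.3; lmFit, eBayes) with 1 mean for each group over all 12 arrays. P was adjusted by Benjamini-Hochberg over 57258 probe sets within a contrast, without the control probe sets. The fit was tested on simulated data. The number of arrays limits the precision, and an exact test of 3 against 3 arrays cannot go below p = 0.1. Nothing beyond the biological replicate label says how the pools of a group were separated.

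The platform table gave 1 gene to 22436 probe sets, several to 95 and none to 34727. A gene with several probe sets was represented by the brightest. Gene order came from RefSeq ASM3414082v1; no build is given for the array values, so no coordinates are printed. Sequences were not used here. The genes and lists were chosen with earlier results of these data known, and no p is given for the 4 genes in any contrast, since the choice rests on all 4 groups. Lists were drawn by symbol and synonym, and 5 genes with an ambiguous synonym were removed by name. Named genes were the pairs, flanking genes that passed the test or stood next to a pair, up to 3 of each list at each stage, the 3 most alike to each gene, and other adjacent pairs called at both stages (there were none). LOC4325217, LOC4350780, LOC4350574, LOC9267533, LOC9270101, the dimmer probe sets, RAG2, GLB1, LOC4339683 and further small RNA genes were named after their values were seen. Alternatives were another normalization, median centring, a filter on dim probe sets, other eBayes settings, the replicate block, a fit of only the groups compared and leaving out each array.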

Additional observations from a re-analysis of the deposited data

Results flagged for a closer look

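The fst effect differed between the stages, by the interaction term of limma, for 3 probe sets of genes flanking the chromosome 1 pair. The difference, 5D minus BF on the log2 scale, was 1.28 (adjusted p = 0.00527) for LOC4325212, 1.26 (adjusted p = 0.0193) for LOC4325211 (TPI), and -1.002 (adjusted p = 0.00871) for LOC4325218 (a metallothionein, MT2A). Each value is from a dimmer probe set of its gene, and the brightest probe sets of these genes gave 0.48 (adjusted p = 0.315), 0.21 (adjusted p = 0.372) and -0.12 (adjusted p = 0.596).

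Of the small RNA genes, AGO14 (LOC4342603) had a difference of -1.71 (adjusted p = 0.000851 from limma), DCL4 (LOC4336362) of 0.63 (adjusted p = 0.0475) and AGO2 (LOC4336991) of 0.54 (adjusted p = 0.0478). The effect of fst on DCL4 and AGO2 passed the test at neither stage.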

How the results depend on the processing

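The counts of the 4 genes kept their values under every alternative run, 4 before flowering and 3 at 5 DAP at least 4-fold lower in fst. The change of LOC4325213 between stages in fst was -0.47 to 0.07 with 1 array left out, turning to 0.068 without MBF replicate 1. Flanking genes lower before flowering numbered 1 with the filter on dim probe sets (signals above 32.2 in at least 1 group), which leaves out LOC4350578, and 4 with 20 genes per side. The genes this added were LOC9267533 and LOC9270101, 17 and 18 genes after the chromosome 11 pair, at -1.46 and -1.32 in log2. At 5 DAP 6 were lower and 2 higher with 20 genes per side, and 0 higher with 5, fewer or more genes being tested. The largest of these falls was that of LOC4350574, 12 genes before the chromosome 11 pair. It gave 2159 ± 1091 in W5D and 105 ± 161 in M5D (SD), or -5.82 in log2 (SE 0.92, adjusted p = 0.00111 from limma). Adjacent pairs at 2-fold numbered 6 before flowering, 21 at 5 DAP and 2 at both. With neighbours taken among genes with a probe set, an alternative chosen after seeing the data, there were 4 before flowering.

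Small RNA genes higher before flowering numbered 0 with arrays centred on the same median, 0 with the replicate block and 0 to 0 without 1 array. At 5 DAP they numbered 2 to 4 without 1 array. Of the Ran genes, 1 was lower before flowering with centred arrays and 1 with the dim filter. The cause was not tested. The replicate number as a block moved the calls over all probe sets from 2644 to 1927 before flowering and from 6655 to 5736 at 5 DAP. It changed no count of the 4 genes or of their flanking genes, and the counts of adjacent pairs were not rerun with it. Deviations of same-numbered arrays correlated between -0.10 and 0.07, so the numbers do not pair the samples.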

Other observations

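Another pair of genes on chromosome 11, LOC4350996, which the study names after the resistance protein RPM1, and LOC4350998, of the NBS-LRR class, stood 1 annotated gene apart and were also low in fst before flowering. LOC4350996 gave 107 in WBF and 7.91 in MBF, and LOC4350998 gave 69.6 and 7.16 (means of 3 arrays), with log2 changes of -3.78 and -3.22. At 5 DAP their log2 changes were -1.71 and -1.41. They were seen when genes without a probe set were skipped in the order, as were LOC4350112 and LOC9266242, with 20 genes between them and log2 changes of -2.57 and -2.01 before flowering.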
